A study of Mus musculus with 2 samples.

Results

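The cells described here were the 559 aortic cells of the Tsc1 knockout (KO) library with the lowest share of contractile transcripts, out of 2097 cells in that library and 4192 in the series. A KO cell was a member when it had at least 500 detected genes, at most 10% of its UMIs (unique molecular identifiers, 1 per captured transcript) from mitochondrial genes, at least 5 eGFP UMIs, fewer than 2 UMIs of the homeobox genes Dlx5, Dlx6 and Msx2 together, and less than 2% of its UMIs from 18 contractile genes (Myh11, Acta2, Tagln, Cnn1, Smtn, Myl9, Mylk, Lmod1, Tpm1, Tpm2, Myl6, Actg2, Des, Cald1, Csrp1, Ppp1r14a, Flna and Actn1). They are called low-share KO cells below. They were set against 676 KO cells at 4% or more (high-share KO cells). The 571 KO cells at 2 to 4% (intermediate KO cells) and the 1350 control cells at 4% or more, filtered in the same way, stand beside them.

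The KO library came from male C57BL/6 mice labelled Tsc1-/-, which carried the floxed alleles Tsc1fl/fl, the inducible recombinase Myh11-CreERT2 and the mT/mG reporter, and the control library from male C57BL/6 mice labelled Tsc1+/+ with the same recombinase and reporter. Both groups received tamoxifen at 1.5 weeks and were sampled at 24 weeks. Viable GFP-positive cells of the thoracic aorta were sorted, and the populations above were further limited to cells with eGFP RNA, which the smooth muscle recombinase switches on. The labels do not state the number of animals per library. Because KO and control each had a single library, the differences have no replicate check. All intervals are exact 95% intervals for counting error.

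Vascular smooth muscle cells hold contractile proteins in the mature state and can lose them and make matrix, adhesion and mineral-binding proteins, a change known as phenotypic modulation. Tsc1 encodes hamartin, which with tuberin restrains the growth kinase complex mTORC1. Osteopontin (Spp1), lumican (Lum), decorin (Dcn), cytokine-like 1 (Cytl1), insulin-like growth factor 1 (Igf1) and vascular cell adhesion molecule 1 (Vcam1) were taken as markers of the modulated state.

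The low-share KO cells made up 30.95% (28.82 to 33.14, exact binomial) of the 1806 KO cells that met the other limits. In the control library 1 of 1436 such cells did, 0.0696% (0.00176 to 0.387). The share ran without a gap in the KO library: the member cells spanned 0.282% to 1.999% with a median of 1.06%, and 259 of them lay under 1%. Their summed counts held 1.12% of UMIs from the 18 genes, against 5.81% in the high-share KO cells and 7.31% in the control cells. The cells were chosen by these values, which are a description. Because the rule is a range on a continuous measure, the cells at its edge were compared once. The 73 cells just inside, at 1.75 to 2%, had 216 CPM (counts of the gene per 1000000 UMIs) of Dcn, 343 CPM of Spp1, 49.7 CPM of Cytl1 and 5152 CPM of Acta2. The 67 KO cells just outside, at 2 to 2.25%, had 234 CPM of Dcn, 140 CPM of Spp1, 121 CPM of Cytl1 and 5698 CPM of Acta2. Dcn and Acta2 were close across the limit, while Spp1 was higher inside it and Cytl1 outside it. The last 2 differences can rest on few cells. Among all members, the 56 cells richest in each gene held 89.9% of the Spp1 and 86.6% of the Cytl1 UMIs.

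**Figure D1:**
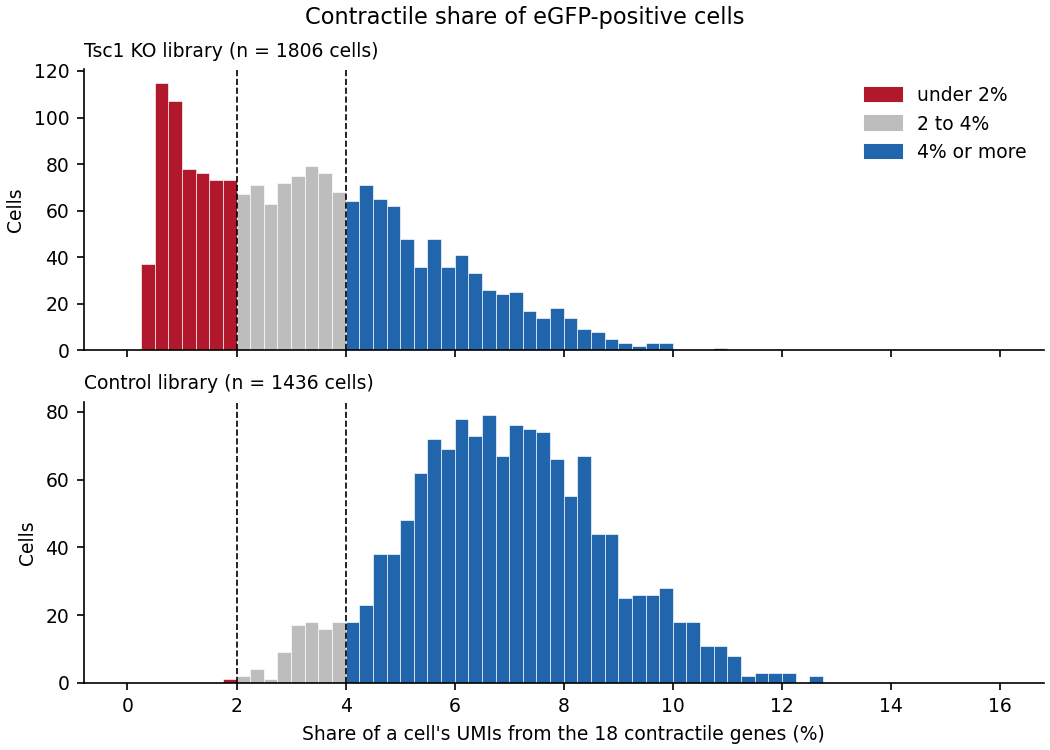
Number of cells (vertical axis) by the percent of each cell's UMIs from the 18 contractile genes (horizontal axis) in the KO library (top, 1806 cells) and the control library (bottom, 1436 cells), with dashed lines at 2% and 4%. The KO cells under 2% number 559, against 1 control cell.

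The low-share KO cells were read at least as deeply as the cells beside them. Their median was 16020 UMIs and 3817 genes, against 14839 UMIs and 3689 genes in the high-share KO cells and 12172 UMIs and 3267 genes in the control cells. The median mitochondrial share was 4.89% in the low-share KO cells, 6.03% in the high-share KO cells and 4.85% in the control cells. Reporter RNA was present but lower, with eGFP at 2708 CPM in the low-share KO cells, against 4693 CPM in the high-share KO cells and 5897 CPM in the control cells. Counts of tdTomato were 0 in all of them. Ptprc, the pan-leukocyte gene, had 1 UMI over all 559 cells. Tsc1 itself had 7.63 CPM (5.97 to 9.61) in the low-share KO cells, 6.26 CPM (4.87 to 7.94) in the high-share KO cells and 8.99 CPM (7.60 to 10.6) in the control cells. The part of the transcript that these libraries count may lie outside the deleted part, so these counts do not check the labels. Of the barcodes, 16 occurred in both libraries and 0 of those were members.

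Across the transcriptome most genes were close between the KO populations, and a limited set was far apart. Of 2945 genes at 50 CPM or more in either population, leaving out the 18 genes of the rule, 142 (4.82%) were at least 2 times higher in the low-share KO cells and 119 (4.04%) were at 0.5 times or less, with a median log2 ratio of -0.04. Past 4-fold lay 44 higher and 13 lower genes. At 10 CPM or more, the limit used for the gene lists below, 377 of 7995 genes (4.72%) were at least 2 times higher and 244 (3.05%) at 0.5 times or less, with a median log2 ratio of 0.01. The intermediate KO cells lay between the low-share and high-share KO cells for all 142 higher genes and for 114 of the 119 lower genes, as bins cut from one range allow. Read against the control cells, 121 of the 142 higher genes were also at least 2 times higher in the low-share KO cells, and 106 of the 119 lower genes were at 0.5 times or less.

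The 6 markers carried the label: each was between 8.93 and 28.5 times its level in the high-share KO cells. Since they were named with these cells in view, the values describe the cells and are no test of the name. Vcam1, which binds leukocyte integrins (ENSMUSG00000027962, mm10 chromosome 3, 116109949 to 116129688), had 1014 CPM (994 to 1035) in the low-share, 260 CPM in the intermediate and 114 CPM (107 to 120) in the high-share KO cells, and 10.6 CPM in the control cells. Dcn, a small proteoglycan that coats collagen fibrils (ENSMUSG00000019929, chromosome 10, 97479609 to 97518143), had 932 CPM (912 to 952), 109 CPM and 40.4 CPM (36.7 to 44.3) in the same order of KO cells, and 12.3 CPM in the control cells. Lum, a proteoglycan of the same family (ENSMUSG00000036446, chromosome 10, 97565128 to 97572703), had 646 CPM (630 to 662), 80.1 CPM and 30.2 CPM (27.0 to 33.7), and 2.37 CPM in the control cells. The matrix genes thus spanned more than an order of magnitude within a single library. Spp1, a secreted phosphoprotein that binds mineral and integrins (ENSMUSG00000029304, chromosome 5, 104435118 to 104441050), had 705 CPM (688 to 722), 115 CPM and 72.7 CPM (67.7 to 78.0), and 0 UMIs in the control cells, which allows up to 0.182 CPM. Cytl1, a small secreted protein also made in cartilage (ENSMUSG00000062329, chromosome 5, 37735519 to 37739820), had 333 CPM (321 to 345), 30.8 CPM and 11.7 CPM (9.76 to 13.9), and 0.972 CPM in the control cells. Igf1, a growth factor (ENSMUSG00000020053, chromosome 10, 87858265 to 87937042), had 213 CPM (204 to 223), 30.0 CPM and 8.20 CPM (6.58 to 10.1), and 1.70 CPM in the control cells. Control cells under 4% are not part of the control values given here. The 16 control cells at 2 to 3% had 991 CPM of Dcn, 403 CPM of Lum, 42.0 CPM of Igf1, 8.40 CPM of Cytl1 and 0 CPM of Spp1 and Vcam1. The 273 KO cells at 2 to 3% had 147, 105, 44.0 and 47.3 CPM of the first 4, 112.5 CPM of Spp1 and 381 CPM of Vcam1. For all 6 the counting intervals of the low-share and high-share KO cells were far apart. These intervals leave out the spread between cells, described below, so their distance is no test of a difference. With a mitochondrial limit of 5% the ratio was 4.70 for Spp1, against 9.70 with 10%, and 52.7 for Cytl1. Against KO cells at 6% or more it was 18.3 for Spp1, 20.1 for Vcam1 and 53.8 for Cytl1.

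Detection per cell followed the same order once depth was made equal. After each cell was thinned to 5000 UMIs, which left 555 low-share, 674 high-share and 1293 control cells, Vcam1 was found in 75.9% of the low-share KO cells, 24.9% of the high-share KO cells and 2.48% of the control cells. Dcn was found in 52.6%, 11.4% and 3.87% of the same cells, Lum in 51.2%, 8.61% and 1.0%, and Igf1 in 37.3%, 3.12% and 0.851%. Spp1 reached 30.3%, 10.2% and 0% and Cytl1 26.1%, 4.30% and 0.696%. Unthinned, Dcn had a UMI in 363 of the 559 low-share KO cells and 176 of the 676 high-share KO cells. Free RNA could be gauged only coarsely, since the KO library held 12 cells with no eGFP UMI (median 4658 UMIs). Of these, 11 had Xist and gave 0 cells with Dcn or Lum, which allows up to 27.3%, and 1 with Spp1. The remaining cell had 45 UMIs of Dcn and 5 of Lum.

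Besides Cytl1, Igf1, Dcn and Lum, the upper end held Ahsg, which encodes fetuin-A, a plasma glycoprotein that keeps calcium phosphate in solution. Ahsg had 187 CPM (178 to 196) in the low-share and 6.82 CPM (5.35 to 8.56) in the high-share KO cells, a ratio of 27.4 (21.7 to 35.1), and 0 UMIs in the control cells. Its paralogue Fetub had 256 CPM in the low-share KO cells, against 30.3 CPM in the high-share KO cells and 0.243 CPM in the control cells. Both genes are best known from the liver. Lmo2, a LIM-domain cofactor of blood and vessel development, had 77.5 CPM, against 4.51 CPM in the high-share KO cells, a ratio of 17.2 (12.8 to 23.4). Figf, which encodes the lymphatic growth factor VEGF-D, had 58.1 CPM, against 4.42 CPM in the high-share KO cells and 4.56 CPM in the control cells, so here the control cells sat at the level of the high-share KO cells. Aldh1a1, an enzyme that makes retinoic acid, had 166 CPM, against 13.0 CPM. Cp, the copper-carrying ferroxidase ceruloplasmin, had 278 CPM, against 27.0 CPM. Cd34, a surface sialomucin of fibroblasts, vessels and blood progenitors, had 68.0 CPM, against 7.37 CPM. Sfrp2, a secreted modulator of Wnt signalling, broke the order across libraries: it had 604 CPM in the low-share, 227 CPM in the intermediate and 70.4 CPM in the high-share KO cells, yet 273 CPM in the control cells. Ly6e, a membrane-anchored Ly6 protein, closed the 15 largest ratios at 58.4 CPM, against 8.20 CPM in the high-share KO cells.

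**Figure D2:**
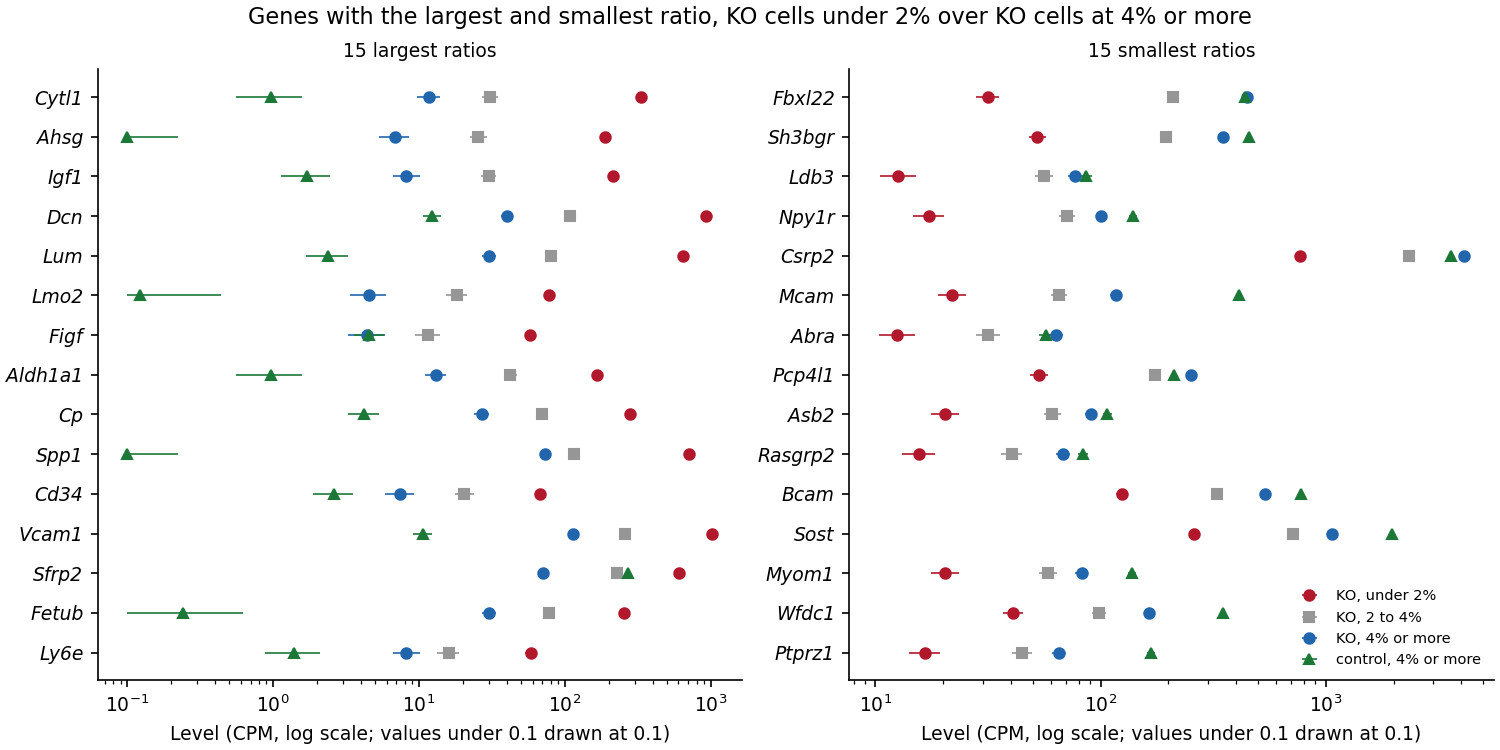
Level in CPM (horizontal, log scale) of the 15 genes with the largest ratio (left panel) and the 15 with the smallest ratio (right panel), with exact 95% Poisson intervals, in low-share, intermediate and high-share KO cells and in control cells. Cytl1 stands at 333 CPM in the low-share and 11.7 CPM in the high-share KO cells, and Fbxl22 at 31.5 CPM in the low-share and 445 CPM in the high-share KO cells, with the intermediate KO cells between them for every gene drawn.

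Among the genes with the smallest ratios, Ldb3, Mcam and Pcp4l1 belonged to the list of smooth muscle genes outside the rule. Fbxl22, which encodes an F-box protein of the sarcomere, had 31.5 CPM (28.0 to 35.3) in the low-share and 211 CPM in the intermediate KO cells, against 445 CPM (433 to 458) in the high-share KO cells and 436 CPM in the control cells, 14.2 times lower than in the high-share KO cells. Ldb3, a Z-disc protein, had 12.6 CPM, against 77.0 CPM in the high-share KO cells and 86.6 CPM in the control cells. Csrp2, a LIM protein of smooth muscle, had 767 CPM, against 4094 CPM and 3600 CPM in the same cells. For these genes the high-share KO cells lay close to the control cells. Mcam, an adhesion molecule of vessel walls, behaved otherwise, with 21.9 CPM in the low-share KO cells, 117 CPM in the high-share KO cells and 414 CPM in the control cells. Sost, which encodes the secreted Wnt inhibitor sclerostin, likewise had 260 CPM, 1064 CPM and 1966 CPM. The remaining genes of the 15 smallest ratios were Sh3bgr, Npy1r, Abra, Pcp4l1, Asb2, Rasgrp2, Bcam, Myom1, Wfdc1 and Ptprz1, and they were 3.96 to 6.66 times lower in the low-share than in the high-share KO cells.

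Since muscle genes are known targets of serum response factor, the promoter windows of the called genes were searched on both strands for its recognition element, the CArG box, in the strict form of CC, 6 bases that are each A or T, and GG. The windows ran from 250 bases before to 50 bases after the RefSeq start (GRCm38.p6). A box was found in 8 of the 86 lower genes with a window (9.30%: Asb2, Cbr2, Fbxl22, Fermt2, Filip1l, Ldb3, Myom1 and Rsu1) and in 3 of the 101 higher genes (2.97%: Egr2, Lama2 and Meg3), against 58 of 2269 measured genes (2.56%) and 488 of all 27025 genes (1.81%). Of the 18 genes of the rule, 15 had a window and 2 held a box in it. The window of Fbxl22 (chr9:66514544-66514843, minus strand) has its box 222 bases before the start and that of Ldb3 (chr14:34588632-34588931, minus strand) 35 bases before it. The window of Cytl1 (chr5:37735269-37735568, plus strand) has none. They are shown as a pair of strongly lower genes with a box and the gene with the largest ratio, 5′ to 3′ on the strand of the gene, with the box in capitals. A match is a description of the letters only.
Fbxl22: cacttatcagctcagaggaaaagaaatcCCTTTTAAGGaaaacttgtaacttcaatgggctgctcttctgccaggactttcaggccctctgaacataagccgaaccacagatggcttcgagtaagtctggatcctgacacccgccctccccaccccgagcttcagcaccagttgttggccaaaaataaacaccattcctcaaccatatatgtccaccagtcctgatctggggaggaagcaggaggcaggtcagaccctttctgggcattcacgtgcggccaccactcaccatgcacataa
Ldb3: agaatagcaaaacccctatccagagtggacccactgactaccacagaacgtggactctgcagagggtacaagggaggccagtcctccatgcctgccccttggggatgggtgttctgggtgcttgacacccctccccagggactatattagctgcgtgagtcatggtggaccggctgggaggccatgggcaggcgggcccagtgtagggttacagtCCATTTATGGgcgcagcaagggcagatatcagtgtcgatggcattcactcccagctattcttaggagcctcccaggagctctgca
Cytl1: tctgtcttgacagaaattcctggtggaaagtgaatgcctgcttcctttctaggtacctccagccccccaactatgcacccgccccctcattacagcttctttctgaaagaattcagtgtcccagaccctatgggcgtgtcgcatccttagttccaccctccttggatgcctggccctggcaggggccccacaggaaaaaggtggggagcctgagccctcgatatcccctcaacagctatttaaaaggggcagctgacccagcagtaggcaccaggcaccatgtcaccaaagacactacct

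Of the smooth muscle genes outside the rule, 15 of 28 measured were at 0.5 times or less in the low-share KO cells and 0 were at 2 times or more, with a median log2 ratio of -1.17 beside 0.01 over all genes. Kcnmb1, a subunit of the calcium-activated potassium channel, had 42.3 CPM in the low-share KO cells, 155 CPM in the high-share KO cells and 251 CPM in the control cells. Mustn1, a small muscle protein, had 297 CPM, 1130 CPM and 808 CPM in the same cells. Myocd, which encodes myocardin, the coactivator of smooth muscle transcription, had 21.6 CPM (18.8 to 24.8) in the low-share KO cells, against 47.1 CPM (43.1 to 51.4) in the high-share KO cells and 64.0 CPM in the control cells. The intermediate filament gene Vim, commonly called mesenchymal, was also lower, with 1882 CPM, 5332 CPM and 7020 CPM. Of 26 genes of the nonmuscle actomyosin and adhesion list it was the single member at 0.5 times or less, and Lima1, at 32.2 CPM against 12.6 CPM in the high-share KO cells, the single member at least 2 times higher. The list's median log2 ratio was -0.49. Among vasoactive signalling genes, Rgs4 and Gucy1b3 were at 0.5 times or less and the potassium channel gene Kcnj8 was at least 2 times higher.

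**Figure D3:**
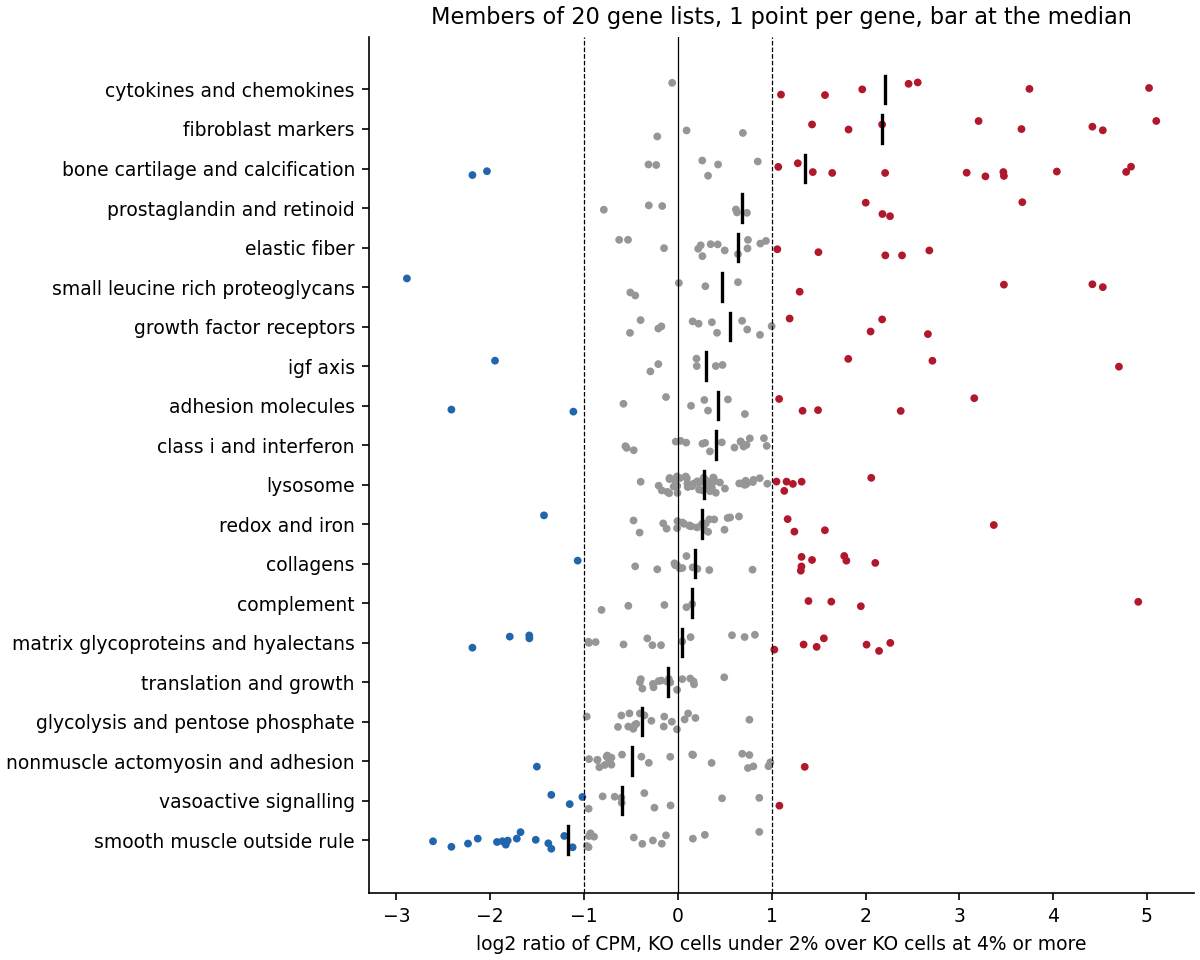
Each point is 1 gene at 10 CPM or more in either population, placed by its log2 ratio of CPM in low-share over high-share KO cells (horizontal axis), in 20 gene lists (rows), with dashed lines at 2-fold and a bar at each list's median. The median is 2.21 for cytokines and chemokines, 1.36 for bone, cartilage and calcification, and -1.17 for smooth muscle genes outside the rule.

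Mineral-related genes held the most abundant transcript of the group. Of 20 measured genes of bone, cartilage and calcification, 12 were at least 2 times higher in the low-share KO cells and 2 (Acan and Sost) at 0.5 times or less. The median log2 ratio was 1.36. Cytl1 and Spp1, both among the 12, are also modulated markers named with these cells in view. Mgp, the matrix protein that inhibits vascular calcification, was the most abundant transcript. It had 69586 CPM in the low-share, 34405 CPM in the intermediate and 22249 CPM in the high-share KO cells, and 5242 CPM in the control cells. Tnfrsf11b, the decoy receptor osteoprotegerin, had 280 CPM in the low-share KO cells, against 60.6 CPM in the high-share KO cells. Bmp4, a bone morphogenetic protein, had 32.6 CPM, against 2.95 CPM, and the cartilage regulator Sox9 had 119 CPM, against 44.0 CPM. Ank, a transporter that raises extracellular pyrophosphate, had 372 CPM, against 177 CPM. The lineage genes of mature cartilage and bone were scarce: Runx2 had 7.53 CPM, Col2a1 2.12 CPM, Alpl 0.424 CPM, and Ibsp 0 UMIs in the low-share KO cells. Aggrecan (Acan) had 3.39 CPM, against 15.5 CPM in the high-share KO cells and 19.3 CPM in the control cells. Bglap, which encodes osteocalcin, averaged 10.6 CPM, against 0.645 CPM, but had a UMI in 0.721% of the thinned low-share KO cells.

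Matrix lists differed in part of their members. Among 10 measured small leucine-rich proteoglycans, Fmod, Prelp and the markers Dcn and Lum were at least 2 times higher. Optc, which encodes opticin, was lower. It had 5.51 CPM in the low-share KO cells, 40.8 CPM in the high-share KO cells and 223 CPM in the control cells. Of 20 collagens, 7 were at least 2 times higher (Col8a1, Col4a3, Col12a1, Col1a1, Col27a1, Col4a4 and Col1a2) and Col18a1 was at 0.5 times or less. Col1a1, a chain of the main fibrillar collagen, had 602 CPM in the low-share KO cells, against 223 CPM in the high-share KO cells, and 409 CPM in the control cells. Col1a2, its partner chain, had 900 CPM, 363 CPM and 873 CPM, so the level was that of the control cells. Col8a1, a network collagen, differed from both, with 128 CPM, 29.9 CPM and 2.25 CPM. Of 19 elastic fiber genes, the fibulins Efemp1, Fbln1, Fbln2 and Fbln5 and the binding protein Ltbp2 were at least 2 times higher and 0 were lower. Among 23 matrix glycoproteins, 7 were higher and 4 lower. Fibronectin (Fn1) had 1452 CPM in the low-share KO cells, against 328 CPM in the high-share KO cells and 506 CPM in the control cells, and thrombospondin 1 (Thbs1) had 323 CPM, 67.3 CPM and 15.4 CPM. Periostin (Postn), a matrix protein of remodelling tissue, was ordered the other way, with 149 CPM, 447 CPM and 962 CPM.

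Proteases and their inhibitors were both among the higher genes. Mmp2, a gelatinase, had 268 CPM in the low-share KO cells, against 43.6 CPM in the high-share KO cells and 12.3 CPM in the control cells. Timp1 had 270 CPM, 45.1 CPM and 13.5 CPM, and Timp2 had 1473 CPM, 678 CPM and 320 CPM; both encode inhibitors of metalloproteinases. Cystatin C (Cst3), an inhibitor of cathepsins, was among the most abundant transcripts at 14119 CPM, 4950 CPM and 2019 CPM. In this list of 21 measured genes, 6 were at least 2 times higher and Mmp17 and Plat were lower.

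Of 8 measured cytokine and chemokine genes, 7 were at least 2 times higher in the low-share KO cells: Il6, Ccl2, Cxcl1, Cxcl16, Cxcl12, Cx3cl1 and Csf1. Most of them were rare. Cxcl12, a chemokine for leukocytes and progenitors, had 273 CPM in the low-share KO cells, against 69.9 CPM in the high-share KO cells, and Il6 had 12.0 CPM, against 0.368 CPM from 4 UMIs. Among 14 measured adhesion molecules, Icam1, Alcam, Jam2, Gpm6a and the marker Vcam1 were at least 2 times higher and Mcam and Ncam1 were lower. Icam1, a leukocyte adhesion molecule like Vcam1, had 58.3 CPM in the low-share KO cells, against 11.2 CPM in the high-share KO cells and 0.364 CPM in the control cells. Of 9 complement genes, 4 were at least 2 times higher, among them C3, C4b and Cd55; in sub-clusters 2 and 3 alone the count was 1. C3, the central component, had 33.2 CPM in the low-share KO cells, against 1.11 CPM in the high-share KO cells. Of 18 class I and interferon genes, 0 passed 2-fold in either direction. Over all genes at 10 CPM or more, 4.72% were higher and 3.05% lower, so 0 of 18 lies near that share. The median log2 ratio of the list was 0.40, beside 0.01 over all genes. B2m, the light chain of class I, had 2133 CPM in the low-share KO cells, 1254 CPM in the high-share KO cells and 722 CPM in the control cells.

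Growth and signalling lists held more higher than lower genes, as did all genes at 10 CPM or more (4.72% higher, 3.05% lower). The median log2 ratio over all those genes was 0.01. Whether these lists lean further was not tested. Of 10 measured genes of the IGF axis, 3 were at least 2 times higher and 1 at 0.5 times or less. The median log2 ratio was 0.30, and the marker Igf1 is among the 3. Igfbp4, a binding protein for insulin-like growth factors, had 740 CPM in the low-share KO cells, against 113 CPM in the high-share KO cells and 159 CPM in the control cells. Igfbp5 had 525 CPM, 149 CPM and 20.5 CPM, and Igfbp2 was lower, with 13.7 CPM, 52.8 CPM and 71.8 CPM. Of 16 measured growth factor and receptor genes, 4 were at least 2 times higher, among them Mdk, Pdgfra and Egfr, and 0 lower, with a median of 0.55. Midkine (Mdk) had 400 CPM, against 63.0 CPM, and the growth factor receptor gene Pdgfra had 42.5 CPM, against 9.40 CPM. Of 15 Wnt and Notch genes, Sfrp2, Wnt5a and Frzb were higher and 0 lower, with a median of 0.40. Of 28 TGF-beta and BMP genes, Thbs1, Smad7, Eng and Smad3 were higher and Tgfb3 and Tgfb1i1 lower, with a median of 0.05. Of 10 prostaglandin and retinoid genes, 4 (Aldh1a1, Slco2a1, Ptgs2 and Ptgds) were higher and 0 lower, with a median of 0.68. Slco2a1, the prostaglandin transporter, had 204 CPM in the low-share KO cells, 42.7 CPM in the high-share KO cells and 0.851 CPM in the control cells. Ptgds, a prostaglandin D synthase, had 210 CPM, 52.5 CPM and 0.608 CPM. Ptgs2, the inducible cyclooxygenase, had 81.0 CPM, against 17.9 CPM in the high-share KO cells, and 80.4 CPM in the control cells.

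Lists tied to lysosomes and to mTORC1 differed in the number of genes past 2-fold within the KO library. Of 54 lysosomal genes, 6 were at least 2 times higher, among them Acp5, Ctsk, Npc2 and Gpnmb, and 0 lower, with a median log2 ratio of 0.28. That count was 11 with a share limit of 1%, 1 in sub-clusters 2 and 3 described below, and 15 at 1.5-fold. Gpnmb, a glycoprotein of lysosomes and melanosomes, had 285 CPM in the low-share KO cells, 130 CPM in the high-share KO cells and 0.972 CPM in the control cells, so the gap to the control was larger than the gap inside the KO library. The same held for the plasma peroxidase gene Gpx3, with 2831 CPM, 955 CPM and 4.31 CPM. Of 25 MiT factor and nutrient-sensing genes, 20 glycolysis and pentose phosphate genes and 16 translation and growth genes, 0 passed 2-fold in either direction, with median log2 ratios of 0.12, -0.38 and -0.11. Over all genes at 10 CPM or more, 4.72% were higher and 3.05% lower, so 0 in each of these short lists lies near that share. Of 88 measured nuclear respiratory chain genes, 2 (Cox6b2 and Cox8b) were higher, with a median of -0.36. Lipid handling held Pltp, Lpl, Npc2 and Abca1 as higher and Fabp4 and Vldlr as lower, of 18. The median log2 ratio was -0.02 for 20 sterol and fatty acid genes, 0.27 for 20 ATF4 and unfolded protein genes and 0.11 for 84 ribosomal protein genes. Among 27 redox and iron genes, Cp, Gpx3, Hmox1 and Ftl1 were higher and Gpx1 was lower.

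Of 11 measured cell cycle genes, Cdkn2a, Ccnd1 and Cdkn2c were at least 2 times higher and Cdkn1c was at 0.5 times or less. Cells with at least 5 UMIs over 9 division genes numbered 5 of 559 low-share, 1 of 571 intermediate and 0 of 676 high-share KO cells. Ccnd1, the cyclin D1 gene, had 55.1 CPM in the low-share KO cells, against 9.40 CPM in the high-share KO cells and 0.121 CPM in the control cells. Cdkn2a, which encodes inhibitors of the cell cycle, had 23.4 CPM (20.4 to 26.7), against 0.921 CPM (0.442 to 1.69), and was found in 3.06% of the thinned low-share KO cells. Of 25 immediate early and heat shock genes, which respond to cell handling, 0 were at least 2 times higher and Hspa1a, Hspb1 and Hspa1b were lower. Hspa1a, the inducible Hsp70 gene, had 109 CPM in the low-share KO cells, against 422 CPM in the high-share KO cells and 1301 CPM in the control cells.

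Marker lists of other cell types were read in full. Of 11 measured fibroblast markers of 16, 8 were at least 2 times higher in the low-share KO cells (Ly6a, Dcn, Lum, Dpt, Cd34, Pdgfra, Serpinf1 and Col1a1), and the list summed to 3519 CPM in the low-share KO cells, 1430 CPM in the high-share KO cells and 1737 CPM in the control cells. Pi16 was at 0 UMIs and Dpt at 11.7 CPM, and Dcn and Lum belong to both this list and the modulated markers. Macrophage markers summed to 9.96 CPM, 10.5 CPM and 13.7 CPM, with 0 of 15 measured at 10 CPM and 6 at 0 UMIs in the low-share KO cells. Endothelial markers summed to 105 CPM, 94.4 CPM and 49.2 CPM, with Cdh5, the defining cadherin, at 0 UMIs. Schwann and neural markers summed to 37.8 CPM, 3.69 CPM and 2.55 CPM, nearly all from S100b at 35.2 CPM, while Sox10 had 0.318 CPM. Red cell markers summed to 7.53 CPM, 0.369 CPM and 0.122 CPM. Pericyte markers summed to 507 CPM, 431 CPM and 664 CPM, lymphocyte markers to 15.7 CPM, 4.15 CPM and 32.1 CPM, and neutrophil and mast cell markers to 7.74 CPM, 12.3 CPM and 8.57 CPM. Ccl5, the single measured lymphocyte marker, was at least 2 times higher. Homeobox smooth muscle markers, of which the rule limits Dlx5, Dlx6 and Msx2, summed to 82.3 CPM, 43.1 CPM and 379 CPM. Osteoclast and melanocyte markers summed to 80.3 CPM, 21.3 CPM and 7.17 CPM, with Mlana, Acp5 and Ctsk at least 2 times higher. Chondrocyte and osteoblast markers summed to 171 CPM, 77.6 CPM and 72.3 CPM, adipocyte markers to 291 CPM, 295 CPM and 165 CPM, and mesothelial and epithelial markers to 21.5 CPM, 38.3 CPM and 27.8 CPM. The part of the fibroblast, Schwann and neural, red cell, and osteoclast and melanocyte markers in the differences was not tested. The single control cell that met the rule, with 7127 UMIs and a share of 1.82%, had 60 UMIs of Dcn, 26 of Lum, 12 of Col1a1, 3 of Dpt, 8 of eGFP and 0 of Spp1 and Cytl1.

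Levels differed along the share, inside the low-share range as well as beyond it. In KO cells at 0 to 0.5% (37 cells), 0.5 to 1% (222 cells), 1 to 1.5% (154 cells) and 1.5 to 2% (146 cells), Dcn had 2112, 1331, 720 and 220 CPM. Cytl1 had 1316, 474, 161 and 52.4 CPM and Igf1 had 489, 287, 169 and 74.1 CPM in these bins. All 3 genes were thus highest at the lowest share. Spp1 did not follow, with 301, 1220, 356 and 355 CPM, its peak lying in the second bin. Elastin (Eln) was lowest in the first bin, at 357, 1079, 1626 and 1675 CPM. The galectin gene Lgals3, singled out after its values were seen, was highest in the first bin, at 908, 398, 308 and 357 CPM, and lay at 250 to 345 CPM in the bins beyond 2%. Mgp had 96146, 82890, 62738 and 48768 CPM. Myocd had 13.9, 13.5, 24.5 and 33.8 CPM, with 59.5 CPM at 3 to 4% and 39.8 CPM at 8% or more.

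**Figure D4:**
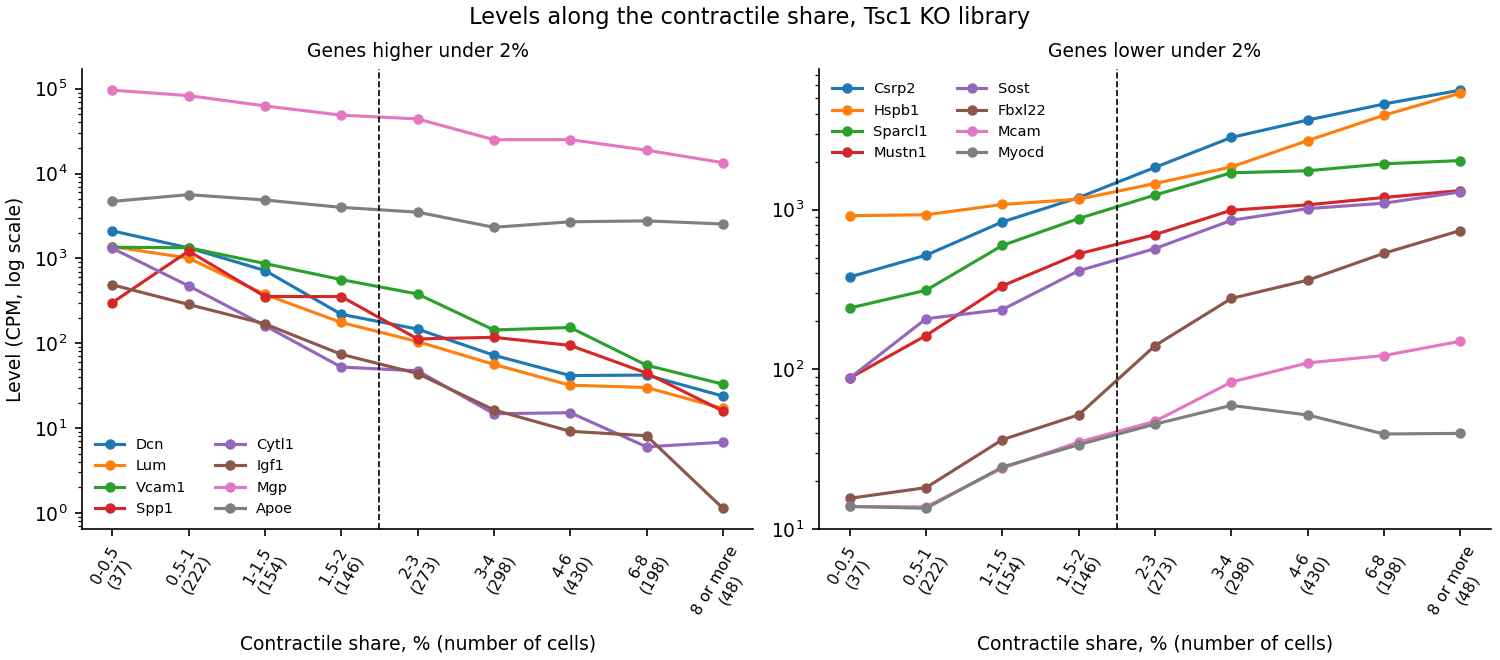
Level in CPM (vertical, log scale) of 8 genes higher (left) and 8 genes lower (right) under 2%, by bin of the contractile share in the KO library (horizontal axis, with the number of cells per bin), with a dashed line at 2%. Dcn runs from 2112 CPM in the lowest bin to 23.9 CPM in the highest, and Spp1 peaks at 1220 CPM in the bin at 0.5 to 1%.

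Individual low-share KO cells differed widely. Vcam1 had a median of 507 CPM per cell and Dcn of 134 CPM, while the median of Spp1, Cytl1 and Igf1 was 0. The 56 cells richest in Spp1 held 89.9% of all its UMIs in the group, and a single cell reached 58245 CPM. The 56 cells richest in each of the other markers held 86.6% of the UMIs of Cytl1, 61.2% of Dcn, 53.3% of Lum, 51.7% of Igf1 and 43.0% of Vcam1. The mean level of Spp1 and Cytl1 was therefore set by few cells. Mgp had a median of 49840 CPM per cell, against 12656 CPM in the high-share KO cells, and a highest value of 300802 CPM. Of the thinned low-share KO cells 36 (6.49%) had 0 of the 6 markers, against 356 (52.8%) of the high-share KO cells, and 16 had all 6, against 0.

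The markers did not sit in the same cells to the same degree. Over 555 thinned low-share KO cells, which share a library and a depth, Dcn and Lum were found together in 231 cells, 79.1% of those with Dcn and 81.3% of those with Lum, with a Spearman correlation of 0.71 as a description. Dcn and Spp1 were together in 99 cells, 33.9% of those with Dcn, with a correlation of 0.06. Spp1 and Cytl1 shared 59 cells, 35.1% of those with Spp1, with a correlation of 0.17. Levels also differed with depth, and not in one direction: the 279 members above the median depth had 829 CPM of Spp1 and 560 CPM of Lum, and the other 280 had 468 CPM of Spp1 and 811 CPM of Lum.

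Spread beyond counting error was measured per gene. The 2575 genes used were those at 50 CPM or more in the low-share KO cells, whatever their level in the high-share KO cells. Over them the median coefficient of variation after removing Poisson error was 0.407 in the low-share KO cells and 0.301 in the high-share KO cells. Because the genes were chosen through the low-share KO cells alone, these medians are not like for like. In the low-share KO cells 148 genes passed 1. The widest was Cxcl1, a neutrophil chemokine, at 8.59, with 1 cell holding 233 UMIs. It was followed by Hmox1 (heme oxygenase 1) at 4.99, Tnnt2 (cardiac troponin T) at 4.34, Cytl1 at 4.29 and Spp1 at 4.28. The markers were chosen in the same way, so their values do not rank the low-share against the high-share KO cells. Spp1 had 4.28 in the low-share and 10.1 in the high-share KO cells, Dcn 2.18 and 5.18, and Lum 1.66 and 3.21. Igf1 had 1.58 and 3.29, Vcam1 1.32 and 4.19, and Cytl1 4.29 and 3.42 in the same order. Values in the high-share KO cells can rest on few cells: Igf1 had a UMI in 55 of 676. Ankrd1, Ahsg, Figf, Timp1, Ifi27l2a, Fxyd6, Ptgs2, Crispld2, Meg3 and Ptgds made up the rest of the 15 widest genes that have a name beyond a gene model number, at 2.31 to 3.89. The first principal component over the 559 cells, computed without the rule genes, took 2.24% of the variance and had Spearman correlations of -0.61 with the contractile share and -0.40 with the mitochondrial share, as a description over cells of 1 library. Cst3, Apoe, Dcn, Mgp, Lum, B2m, Pcolce, Fetub, Bsg and Igf1 lay at its positive end, and Lpp, Sparcl1, Npnt, Myh10, Itga8, Mustn1, Kcnmb1, Susd5, Enah and Csrp2 at its negative end. The main axis inside the group thus ran along the share that had defined it, with muscle genes outside the rule at the other end.

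Clustering of the members gave 6 sub-clusters, which are given by number and leading genes, with no cell type name. The cuts depended on the resolution. At 0.3 most of sub-clusters 1, 4 and 5, and 86 of the 147 cells of sub-cluster 2, lay in a single cluster of 371 cells. At 0.8 the best match held 47.8% of sub-cluster 1 and 42.2% of sub-cluster 2. Sub-cluster 1 (184 cells, median share 0.759%) was led by Tnnt2, Mmp3, Ptgds, Cytl1, Cxcl1, Ahsg, Fxyd6 and Isg15. It had 1682 CPM of Vcam1, 986 CPM of Spp1 and 100908 CPM of Mgp. Bglap had 28.4 CPM in it, against 0 to 2.02 CPM in the other sub-clusters. Sub-cluster 2 (147 cells, 1.36%) was led by Tcap, Sparcl1, Pcp4l1, Mamdc2, Rrad, Hmox1, Tppp3 and Gclm, a set that joins muscle genes with the antioxidant genes Hmox1 and Gclm. Its levels of Dcn (240 CPM) and Igf1 (77.4 CPM) were low for the group. Sub-cluster 3 (103 cells, 1.45%) was led by Cenpa, Lockd, Anln, Col3a1, Xirp1, Eln, Cks2 and Flnc, and 4 of the 5 dividing members lay in it. It held 2899 CPM of Eln and 528 CPM of Col3a1, with 936 CPM of Spp1 and 93.0 CPM of Dcn. These Spp1 levels can rest on few cells, since a single member held 697 of the 6650 Spp1 UMIs of the group. The place of Cxcl1 among the leading genes of sub-cluster 1 can likewise rest on 1 cell. A single member held 233 Cxcl1 UMIs.

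Sub-cluster 4 (70 cells, 0.974%) was led by Rgs5, Ppm1n, Igfbp4, Nr4a3, Cp, Itih4, Errfi1 and Lamc3. It had 1255 CPM of Dcn, 1357 CPM of Lum and 83.3 CPM of Cytl1. Its Dcn level was close to the 1249 CPM of sub-cluster 1, while Spp1 stood at 285 CPM. Sub-cluster 5 (32 cells, 0.525%) was led by Ly6a, Gda, Clec3b, Ly6c1, Dpt, S100b, Wfdc3 and Cdkn2a, and held 4546 CPM of Dcn and 1069 CPM of Cytl1. In it 7 of the 16 fibroblast markers (Dpt, Dcn, Lum, Clec3b, Ly6a, Gsn and Serpinf1) were at 2 or more times their level in the other members, Pi16 was at 0 UMIs, and eGFP was at 2792 CPM, close to the 2708 CPM of all members. Cdkn2a had 172 CPM there, against 0 to 33.7 CPM in the other sub-clusters. Sub-cluster 6 (23 cells, 0.935%) was led by Ctla2a, Megf10, Adamtsl1, Coch, Dlx6os1, Prrx2, Inmt and Gng2, with 3257 CPM of Sfrp2, 1197 CPM of Sost and 16.1 CPM of Spp1. Its Sost level was close to the 1064 CPM of the high-share KO cells, unlike the 66.7 to 368 CPM of the other sub-clusters. Sub-cluster 6 held 12 UMIs of Dlx5, Dlx6 and Msx2 together, though each member had fewer than 2. Sub-clusters 1 to 5 held 15, 13, 5, 1 and 8 such UMIs in 184, 147, 103, 70 and 32 cells. Prrx2 is also on the list of homeobox smooth muscle markers. Whether sub-cluster 6 belongs with the KO cells left out by that limit was not tested. Without sub-clusters 5 and 6, the ratio to the high-share KO cells was 18.4 for Dcn and 18.7 for Lum, against 23.1 and 21.4 with them. In sub-clusters 2 and 3 alone it was 4.32 for Dcn, 4.67 for Lum, 8.43 for Cytl1, 11.8 for Igf1 and 5.27 for Vcam1.

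**Figure D5:**
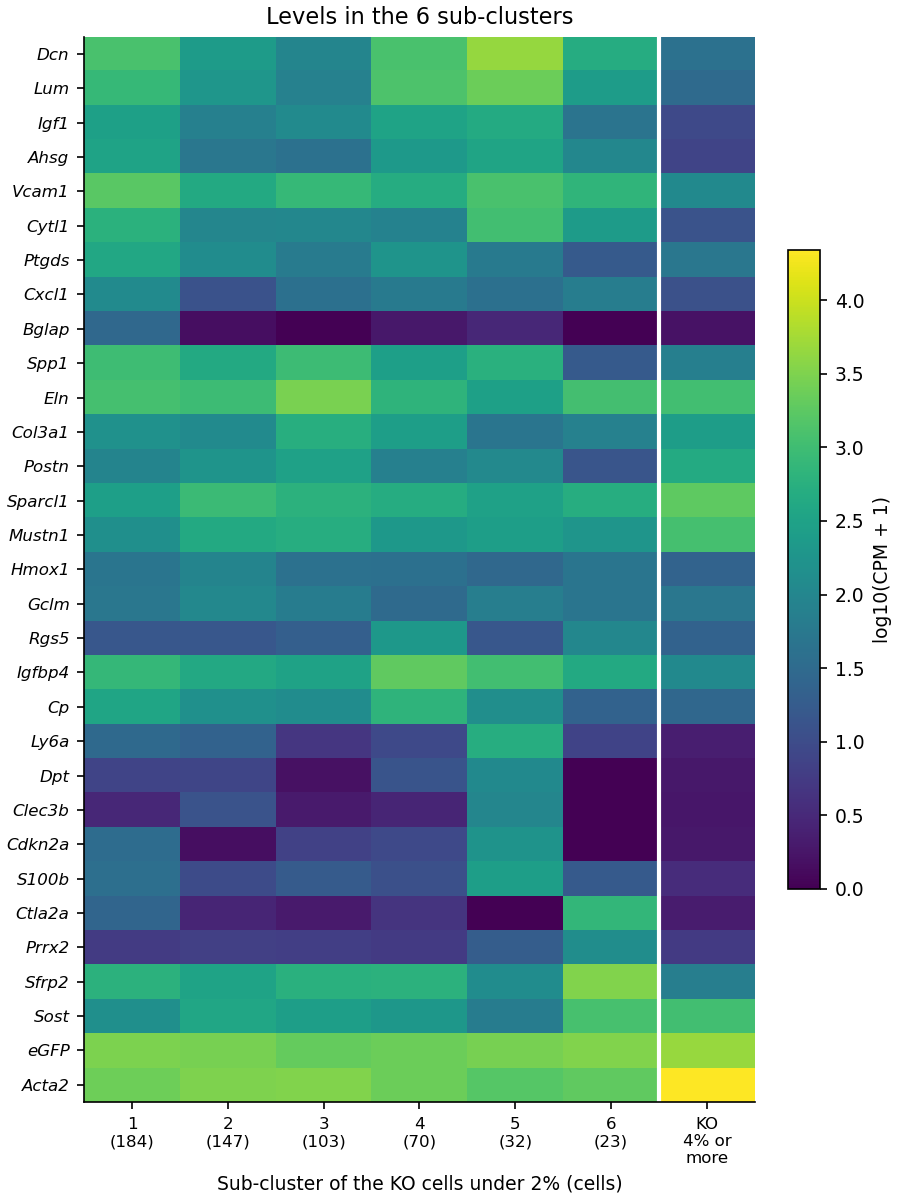
Level as log10(CPM + 1) (color) of 31 genes (rows) in the 6 sub-clusters of the low-share KO cells (columns, with the number of cells) and, in the last column, the high-share KO cells. Dcn is highest in sub-cluster 5 (4546 CPM), Eln in sub-cluster 3 (2899 CPM) and Sfrp2 in sub-cluster 6 (3257 CPM), while eGFP lies at 2057 to 3257 CPM in all 6.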

How the data were processed

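Per the labels, sorted GFP-positive cells of the thoracic aorta went into 10x Chromium libraries read on an Illumina HiSeq instrument. The authors deposited raw UMI counts per gene and cell for each library. The submitters' processing notes list mm10 as build, with Seurat 2.0, Cell Ranger and bcl2fastq as tools; how cells were called is not stated there. The authors also deposited a table of averages for 16415 genes in 16 columns, each summing to 10000, so its unit was taken as a normalized score per 10000. The matrices held 2097 KO cells with 32427513 UMIs and 2095 control cells with 21690868 UMIs. Features sharing a symbol (65) were summed.

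For CPM, the counts of all cells in a population were added and divided by the population's total. Ratios carry exact conditional binomial intervals, counts exact Poisson intervals and shares exact Clopper-Pearson intervals, all at 95% and for counting error only. A count of 0 was read against a floor of 3 counts per population. No test was made and no p-value given, since each group had 1 library; a gene was called at 2-fold or 0.5-fold. The calculation was tested on simulated data. Spread, principal components and Leiden sub-clusters (1500 variable genes, 15 components, 15 neighbours, resolution 0.5, Scanpy 1.11.5) left out the rule genes, mitochondrial and ribosomal genes. Leading genes were ranked by CPM with 5 added. Scrublet called 6 of 1936 KO cells (0.310%) and 6 of 2042 control cells doublets, 1 of them a member; they were kept. Unnamed gene models were left out of the ranked lists. Named genes were the markers, the 15 largest and smallest ratios, list members at either end or past 2-fold, the 15 widest in spread and leading genes. The members, the markers and the 45 gene lists were chosen with earlier results of these data known. A few genes past 2-fold are not reported here.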

Additional observations from a re-analysis of the deposited data

Results flagged for a closer look

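KO cells that the comparisons left out also held marker signal, and were picked out because the control cells left out by the same limit had less. Of 113 KO cells left out for at least 2 UMIs of Dlx5, Dlx6 and Msx2, 78 had a share under 2%, against 1 of 256 such control cells, and these 78 KO cells had 1464 CPM of Spp1, 451 CPM of Dcn and 1034 CPM of Vcam1. The 256 control cells had 0 UMIs of Spp1.

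Of 146 KO cells over the mitochondrial limit, 24 had a low share, against 1 of 45 control cells, and the 24 cells had 1153 CPM of Vcam1 and 199 CPM of Dcn, against 0 UMIs of both in the control cell, which had 2755 UMIs and is too little to compare with. All 45 control cells over that limit had 13.7 CPM of Vcam1. The 5 KO cells with 1 to 4 eGFP UMIs all had a low share and held 1260 CPM of Dcn, against 0 UMIs in 8 control cells within the same limits. Of the 5 KO cells 0 had Xist or Ptprc, while 7 of the 8 control cells had Xist and 6 had Ptprc, so the cells do not match.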

How the results depend on the processing

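The 6 markers kept a ratio above 4 under all 14 alternatives tried: 4.70 to 18.3 for Spp1, 4.67 to 34.95 for Lum, 4.32 to 35.5 for Dcn, 8.43 to 53.8 for Cytl1, 11.8 to 38.2 for Igf1 and 5.27 to 20.1 for Vcam1. The lowest values of the last 5 came from sub-clusters 2 and 3 alone, and that of Spp1 from a mitochondrial limit of 5%. The number of members was 296 with that mitochondrial limit, 259 with a share limit of 1% and 250 in sub-clusters 2 and 3. The counts of higher and lower genes were 377 and 244 at 10 CPM, 1585 and 828 with no filter beyond 3 counts, where each of these settings admitted more genes, and 336 and 321 at 1.5-fold, where only the fold changed. The count of lower genes was 203 with a share limit of 1% and 77 in sub-clusters 2 and 3; the cause was not tested. Leiden resolution 0.3 gave 3 sub-clusters and 0.8 gave 8; sub-cluster 6 was a cluster of its own at 0.3 and made up 56.1% of its match at 0.8. The share limit of 1%, the sub-cluster choices and the resolutions were chosen after seeing the data. Of 93 alternatives for the main counts 81 stayed within 1.5 times. A count has no direction to reverse, and the marker ratios, which have one, all stayed above 4. The count of higher elastic fiber genes was 8 against KO cells at 6% or more and 10 at 1.5-fold, and that of cytokine genes 14 with no filter. CPM without the rule genes moved the median log2 ratio of all genes to -0.12. In the low-share KO cells 3 counts equal 0.318 CPM. No paired analysis was possible because each group had 1 library.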

Other observations

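In the authors' deposited table, KO cluster 2 was closest to the low-share KO cells, with a Spearman correlation across 9333 genes of 0.99 with their CPM and of 0.94 with that of the high-share KO cells. Genes are not independent replicates. The table gave that cluster 9.71 of Dcn, 7.93 of Lum, 5.40 of Spp1, 3.19 of Cytl1 and 8.77 of Vcam1 per 10000. KO cluster 3 had a correlation of 0.96 with the low-share and 0.98 with the high-share KO cells. The table gave KO cluster 3 5.26 of Spp1, near the value of KO cluster 2, and 4.52 of Vcam1. Its values were 1.89 for Dcn, 1.17 for Lum and 0.337 for Cytl1. For control cluster 2 it gave 25.4 of Dcn, 13.0 of Lum and 0 of Spp1 and Cytl1.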
